A study of Mus musculus with 6 samples.

Results

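Clustered domains of acetylated histone H3 lysine 27 (H3K27ac) were called in bone-marrow hematopoietic stem cells of Ppp2ca-deficient mice. Peaks of all 6 libraries that overlapped by at least 1 bp were merged into 104143 regions on chromosomes 1 to 19 and X. Of these, 14976 held a peak in all 3 knockout (KO) libraries. Such regions were stitched where they lay 12500 bp or less apart, and stretches with at least 4 of them, called constituents here, were kept and ranked by their number of constituents and then by summed constituent length. The rule gave 220 domains with 1033 constituents, which is 6.90% of the 14976 regions. The KO peaks chose the domains, so the presence of KO peaks in them is a description, and what could be compared is the presence of wild-type (WT) peaks, which the rule did not ask for. WT peaks could still widen or join a merged region. With regions merged from KO peaks alone, an alternative chosen after the data had been seen, there were 215 domains, which overlapped 210 of the 220.

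H3K27ac marks active promoters and enhancers. Enhancers that lie close together are often stitched into super-enhancers or stretch enhancers, which in many cell types sit beside genes of cell identity, although the same stitching also joins neighbouring promoters of housekeeping or repeated genes. Ppp2ca encodes a catalytic subunit (alpha) of protein phosphatase 2A, or PP2A, a serine/threonine phosphatase with many substrates in signalling and chromatin.

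The KO group was 3 CUT&RUN libraries from Ppp2ca-deficient mice and the WT group was 3 from mice with wild-type Ppp2ca. In CUT&RUN an antibody tethers a nuclease to the mark, and the released fragments are sequenced. The series text gives 3 mice for each genotype, but no label numbers the animals. The sources used here do not give the deleted part of the gene, the promoter or line that drove any deletion, or the age of the mice. Over Ppp2ca itself (chr11:52098824-52122749, GRCm38) every library had at least 1 peak, with a highest fold over background of 6.02, 5.83 and 6.66 in KO replicates 1 to 3, against 6.20, 4.08 and 5.30 in WT replicates 1 to 3. A peak list cannot show whether that gene was deleted.

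The lists were unequal in length and confidence. They held 50364, 33963 and 35565 peaks in KO replicates 1 to 3, against 21971, 29831 and 21822 in WT replicates 1 to 3, on the chromosomes used. A deposited q-value of at most 0.05 was reached by 43.9%, 47.4% and 66.7% of the KO peaks, against 16.5%, 15.7% and 16.7% of the WT peaks. The peaks covered 22.7, 14.5 and 19.5 Mb in KO replicates 1 to 3, against 7.25, 9.56 and 7.21 Mb in WT replicates 1 to 3. The lists hold no read totals, and depth, list length and genotype cannot be told apart in any count of peaks below. Of all 21627 protein-coding genes, 9288 (42.9%) overlapped a region with peaks in all 3 KO libraries. Among 30 genes typical of stem cells of this kind 17 did, against 3 of 32 genes of other organs, 2 of 20 T and NK cell genes and 5 of 20 lymphoid and B cell genes. For other marrow lineages the counts were 10 of 20 erythroid, 8 of 20 megakaryocyte and platelet and 7 of 20 myeloid genes, which lie near the share of all genes, and the part of such cells in the results was not tested.

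Sequences were taken from RefSeq (GRCm38.p6) for domain members that the account below turns on. Promoters run from 250 bases before a start to 50 bases after it, are given 5′ to 3′ on the gene's strand, and all overlap a constituent. They belong to H3c8 (chr13:23535168-23535467, plus strand) and H4c1 (chr13:23761200-23761499, minus strand), which encode replication-dependent histones, and to Ddit4 (chr10:59951721-59952020, minus strand), a stress-induced brake on the growth kinase mTORC1. The other 3 are Ifitm2 (chr7:140955912-140956211, minus strand), an interferon-induced antiviral membrane protein, Mcl1 (chr3:95658471-95658770, plus strand), a survival factor on which blood stem cells depend, and Dusp1 (chr17:26508423-26508722, minus strand), an immediate early phosphatase of MAP kinases. Capitals mark 4 motifs on either strand: the CCAAT box (CCAAT), the TATA box (TATAAA), the GC box (GGGCGG) and an ETS motif (CCGGAAG). Matches may share bases and were counted at any position in the promoter.
H3c8: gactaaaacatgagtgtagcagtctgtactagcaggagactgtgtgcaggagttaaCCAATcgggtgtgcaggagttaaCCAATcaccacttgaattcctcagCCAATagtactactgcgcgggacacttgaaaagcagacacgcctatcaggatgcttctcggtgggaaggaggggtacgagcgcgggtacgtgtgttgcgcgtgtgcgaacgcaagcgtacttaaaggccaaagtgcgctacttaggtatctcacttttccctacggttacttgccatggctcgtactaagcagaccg
H4c1: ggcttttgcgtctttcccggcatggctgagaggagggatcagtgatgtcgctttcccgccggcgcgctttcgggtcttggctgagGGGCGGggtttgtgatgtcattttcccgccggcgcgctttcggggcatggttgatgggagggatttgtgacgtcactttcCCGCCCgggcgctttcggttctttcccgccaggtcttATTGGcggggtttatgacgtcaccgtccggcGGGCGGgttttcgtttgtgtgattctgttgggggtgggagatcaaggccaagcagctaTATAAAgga
Ddit4: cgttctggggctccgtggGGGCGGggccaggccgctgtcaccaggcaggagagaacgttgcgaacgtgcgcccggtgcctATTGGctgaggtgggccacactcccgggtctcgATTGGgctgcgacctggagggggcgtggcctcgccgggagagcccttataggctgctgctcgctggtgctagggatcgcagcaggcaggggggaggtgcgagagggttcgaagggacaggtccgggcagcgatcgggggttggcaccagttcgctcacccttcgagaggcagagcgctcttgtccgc
Ifitm2: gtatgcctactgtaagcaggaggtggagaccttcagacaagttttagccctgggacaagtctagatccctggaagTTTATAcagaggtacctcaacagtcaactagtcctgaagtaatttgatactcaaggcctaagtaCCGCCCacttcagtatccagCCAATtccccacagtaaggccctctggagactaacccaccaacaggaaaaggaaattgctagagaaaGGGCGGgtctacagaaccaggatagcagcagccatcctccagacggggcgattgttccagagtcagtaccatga
Mcl1: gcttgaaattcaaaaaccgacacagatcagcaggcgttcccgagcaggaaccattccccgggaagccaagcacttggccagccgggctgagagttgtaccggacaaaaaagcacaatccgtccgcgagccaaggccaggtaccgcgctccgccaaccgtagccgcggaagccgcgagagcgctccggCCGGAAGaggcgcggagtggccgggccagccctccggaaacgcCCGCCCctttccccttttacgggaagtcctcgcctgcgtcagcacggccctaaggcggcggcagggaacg
Dusp1: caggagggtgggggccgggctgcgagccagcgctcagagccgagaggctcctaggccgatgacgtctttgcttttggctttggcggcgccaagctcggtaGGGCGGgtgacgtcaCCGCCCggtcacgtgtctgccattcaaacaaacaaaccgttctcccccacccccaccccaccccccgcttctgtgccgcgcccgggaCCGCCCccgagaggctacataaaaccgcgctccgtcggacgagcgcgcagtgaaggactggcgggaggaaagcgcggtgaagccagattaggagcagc

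Mature miRNAs from hairpins inside domains are shown with their seed, bases 2 to 8, in capitals. They are miR-21a-5p (chr11:86584120-86584141, minus strand), miR-23a-3p, miR-27a-3p and miR-24-3p of 1 hairpin cluster (chr8:84208563-84208583, chr8:84208727-84208747 and chr8:84208875-84208896, plus strand) and miR-26b-5p (chr1:74394324-74394344, plus strand). All are well known in blood or immune cells.
miR-21a-5p: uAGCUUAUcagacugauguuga
miR-23a-3p: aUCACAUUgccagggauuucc
miR-27a-3p: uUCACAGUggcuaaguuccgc
miR-24-3p: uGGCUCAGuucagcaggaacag
miR-26b-5p: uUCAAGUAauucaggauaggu
No 2 mature miRNAs encoded inside the domains shared a seed.

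Most domains were short runs. Of the 220 domains, 147 had 4 constituents, 43 had 5 and 14 had 6, and the other 16 had 7 to 23. The median domain spanned 27364 bp (range 9649 to 100441) and held 5292.5 bp of constituents (range 2775 to 16544), so that constituents filled a median of 19.6% of the span. The 813 gaps between constituents had a median of 6461 bp, and 78 of them (9.59%) were under 1 kb. Together the domains spanned 6.44 Mb and held 487 of 21627 protein-coding genes, the 2.25% used as the background for gene lists below. They held a median of 2 genes, with no gene in 28 domains, 1 gene in 77 and 5 or more in 25. Chromosome 11 had 21 domains, chromosome 7 had 18, and chromosome X had 1.

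Runs on the 2 sides of the cut at 4 constituents overlapped in summed length. The last-ranked domains kept were at Lrrfip1 (3251 bp of constituents), at a gene-free place on chromosome 1 (3118 bp) and at Ubald2 (2775 bp). The first runs of 3 left out were longer in sum, with 6149 bp at Cyb5d1, Naa38, Tmem88 and Kdm6b and 5993 bp at Glipr2. In all, 481 runs of 3 fell short, with a median of 3411 bp of constituents, against 4933 bp for the 147 runs of 4. The count of domains also depended on how many KO libraries had to hold a peak. Leaving out a KO library relaxed the rule to 2 libraries and gave 356, 496 and 312 domains without KO replicates 1, 2 and 3, and these overlapped 207, 215 and 207 of the 220.

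**Figure D1:**
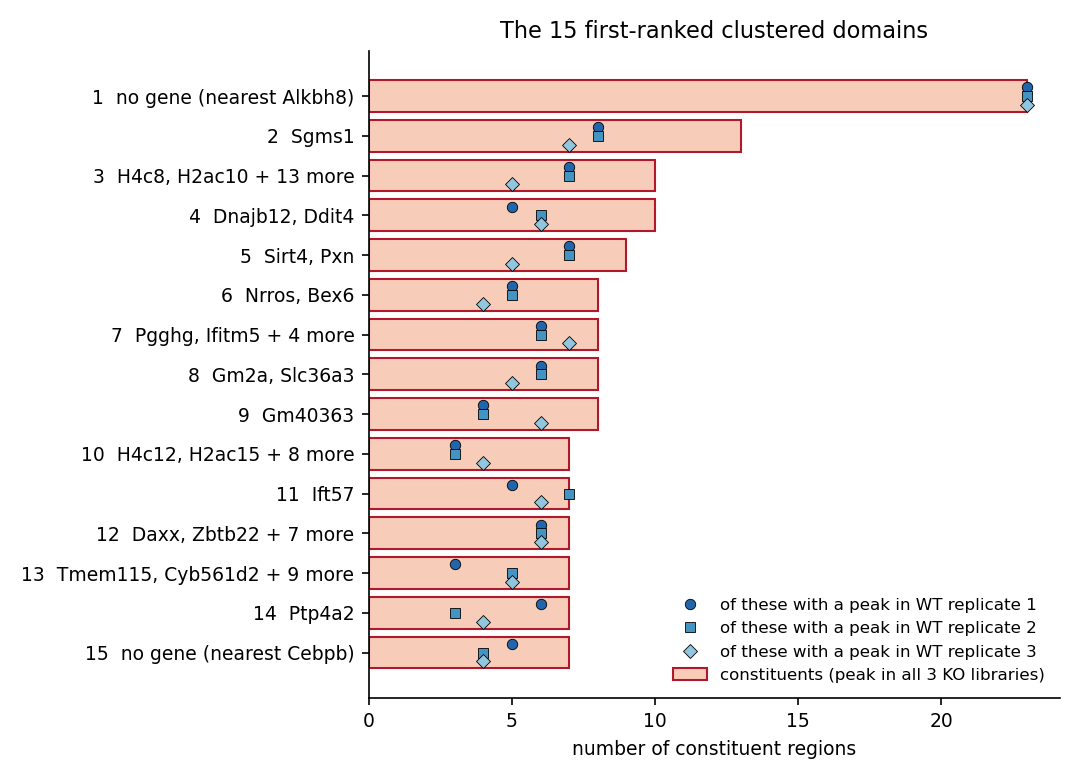
Number of constituents (bars, each with a peak in all 3 KO libraries by the rule) and the number of them with a peak in each WT library (symbols) for the 15 first-ranked domains. The first domain has all 23 constituents in every WT library, while Sgms1 has 7 or 8 of 13.

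The first-ranked domain stood apart from the rest. It lay at the very start of the sequenced part of chromosome 9 (chr9:3000096-3038371), 296860 bp from the nearest protein-coding gene, Alkbh8, which encodes a tRNA-modifying enzyme. All of its 23 constituents had a peak in all 6 libraries, and 21 of them held 1 of the 50 strongest peaks of some library, which only 1 other constituent of any domain did. Its peaks covered 13118, 12876 and 13321 bp in KO replicates 1 to 3, against 13175, 13458 and 13237 bp in WT replicates 1 to 3. The highest fold, as the authors' caller gave it, was 8.56, 9.14 and 8.42 in KO libraries, against 8.40, 8.02 and 8.22 in WT libraries. In covered length the genotypes overlapped. In no other domain of the first 15 did they, but the rule asks for KO peaks. Whether this stretch is repeated sequence, to which reads of many places can be assigned, was not tested here. Shares and differences of all constituents are therefore also given without it.

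The second domain lay wholly inside Sgms1, which encodes sphingomyelin synthase 1 of the Golgi (chr19:32172189-32272629). It was the longest, with 13 constituents over 100441 bp. None lay at an end of the gene, and 1 overlapped an internal start in the RefSeq promoter table. Peaks covered 9748, 6670 and 10936 bp in the KO libraries, against 2371, 2940 and 3517 bp in the WT libraries, and the lowest KO value was above the highest WT value. Covered lengths here and below are descriptions, since KO peaks chose the domains and the whole KO lists also covered more than the WT lists. WT replicates 1 to 3 had a peak in 8, 8 and 7 of the 13 constituents, and 4 of the constituents had one in all 3.

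The fourth domain ran from Dnajb12, an endoplasmic reticulum co-chaperone, to Ddit4 (chr10:59879100-59952465). Of its 10 constituents, 3 were at gene ends, and most of the others filled the space between the genes. Peaks covered 7551, 6235 and 7928 bp in the KO libraries, against 2133, 3054 and 2442 bp in the WT libraries, again without overlap. The constituent at the Ddit4 promoter printed above had a fold of 4.41, 4.76 and 4.44 in the KO libraries, against 2.81 and 3.37 in WT replicates 2 and 3 and no peak in WT replicate 1. The constituent at the start of Dnajb12 had a peak in all 6 libraries.

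Other domains among the first 15 held Sirt4, a mitochondrial sirtuin, with Pxn, the focal adhesion adaptor paxillin (9 constituents, with 7, 7 and 5 in WT replicates 1 to 3), and Nrros with Bex6 (8 constituents, with 5, 5 and 4 in WT). Gm2a, the activator of ganglioside breakdown, lay with Slc36a3 (8 constituents, 6, 6 and 5 in WT), and the predicted gene Gm40363 was alone in its domain (8 constituents, 4, 4 and 6 in WT). The domain of Ift57, a part of the cilium transport machinery, had 7 constituents (5, 7 and 6 in WT), of which 1 overlapped the gene. That of Ptp4a2, a phosphatase of the PRL family, had 7 (6, 3 and 4 in WT), of which 3 overlapped the gene. Daxx, a chaperone of histone H3.3, shared a domain with Tapbp of the peptide loading complex and Rps18 (7 constituents, 6 in each WT library). A gene-rich domain on chromosome 9 with Rassf1, Hyal1, Hyal2, Hyal3, Tusc2 and Nprl2 also had 7 (3, 5 and 5 in WT).

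**Figure D2:**
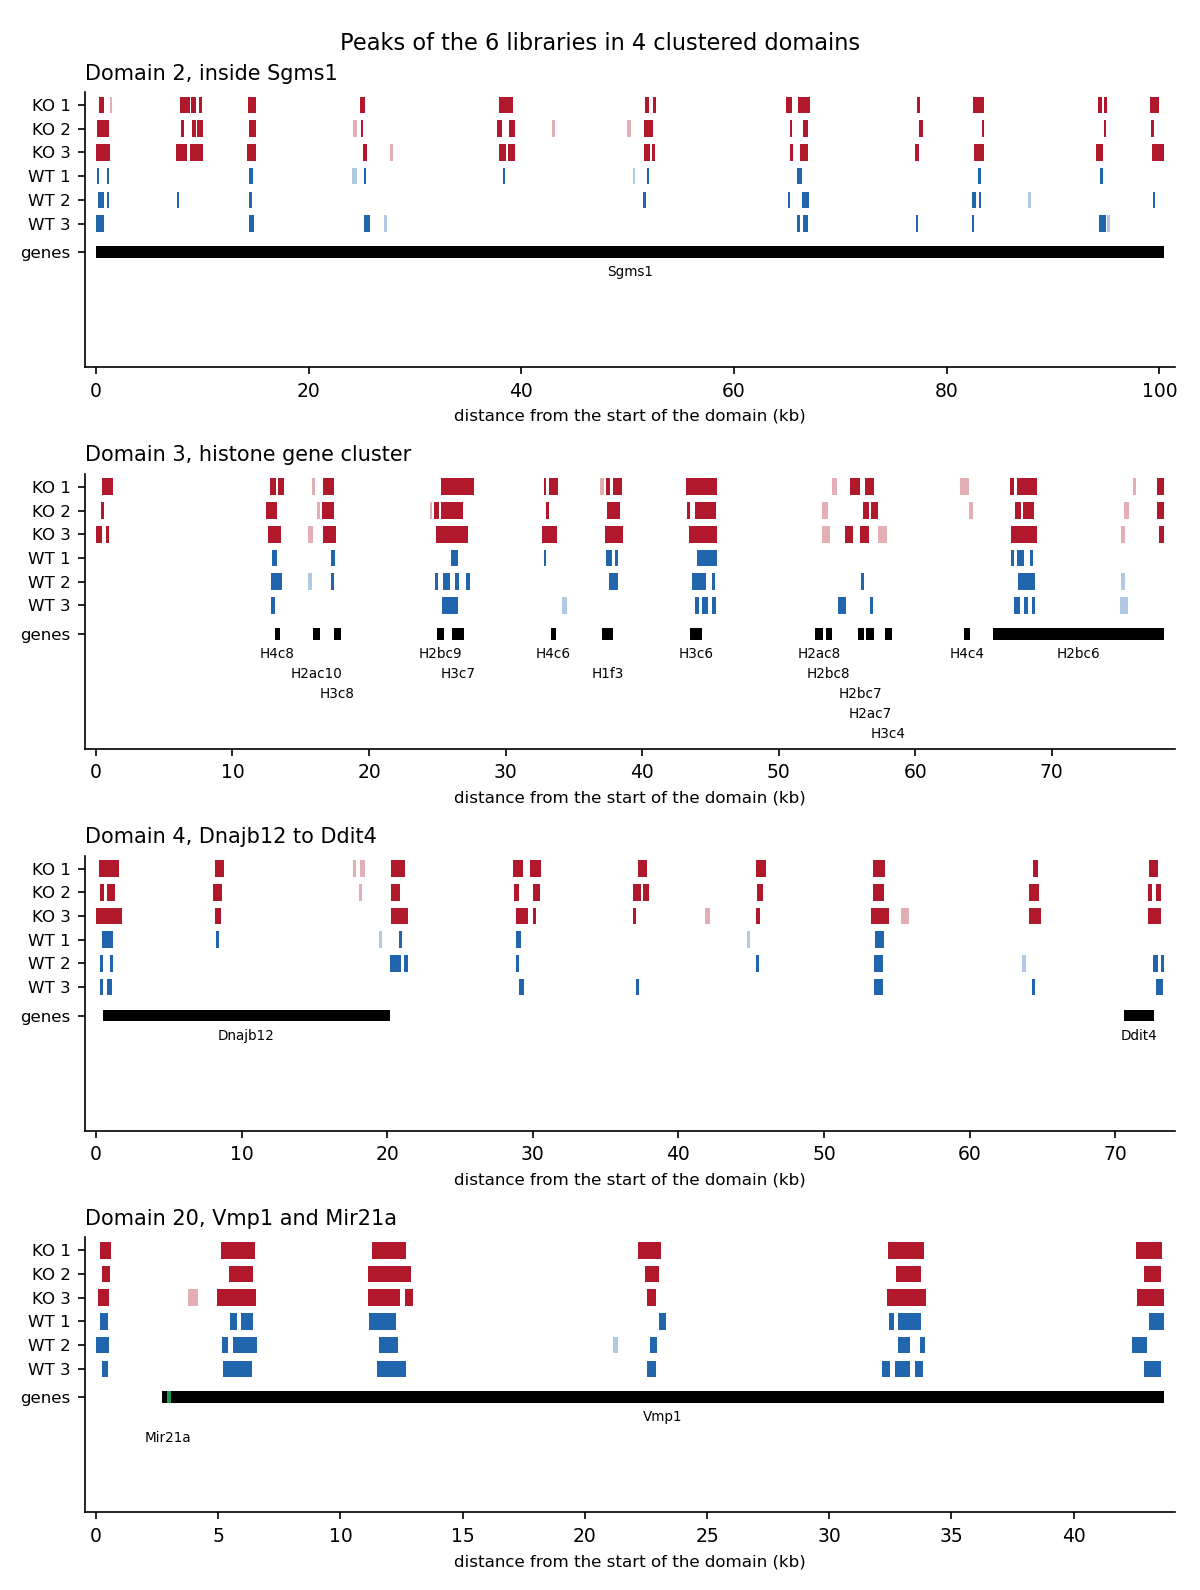
Peaks of the 3 KO libraries (red) above those of the 3 WT libraries (blue), in kb from the start of 4 domains, with genes in black and the miRNA hairpin in green, and with peaks outside constituents pale. The KO rows are filled at each constituent, and the WT rows are filled at each one only in the domain of Vmp1 and Mir21a.

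Of the 16 gene lists, histone genes had the highest share inside domains. Of 47 replication-dependent histone genes, which are switched on in S phase and lie in dense clusters, 32 (68.1%) were inside 4 domains of chromosome 13, against 2.25% of all protein-coding genes. Among genes that overlapped a region with peaks in all 3 KO libraries the counts were 25 of 36 (69.4%), against 4.94% of all 9288 such genes. These genes share their positions, so 4 domains and not 32 genes are the independent items. The domains ranked 3 (chr13:23517964-23596205), 10 (chr13:21750116-21812398), 31 (chr13:23738233-23762826) and 74 (chr13:22020096-22051575).

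In the domain ranked 3, 10 constituents lay among H4c8, H3c8, H2bc9, H3c7, H4c6, H1f3, H3c6, H2bc7 and 7 other genes, and 7 of the 10 were at a gene end. Peaks covered 12679, 9204 and 12836 bp in KO replicates 1 to 3, against 4338, 5810 and 4050 bp in WT replicates 1 to 3. WT libraries had a peak in 7, 7 and 5 of the 10. In the domain ranked 10 the WT libraries had 3, 3 and 4 of 7 constituents, and the constituents over H4c12 and over H2ac22 had a peak in no WT library. The domain ranked 31 had 3, 5 and 3 of 5 in WT, and that ranked 74 had 4, 3 and 3 of 4 in WT. In all 4 domains every KO library covered more bases than any WT library. The same held for the constituents of all 220 domains together, with 717 to 929 kb in KO libraries, against 338 to 382 kb in WT. The fold did not differ in the same way and went in either direction. The constituent over H2bc9 and H3c7 had 5.02, 4.56 and 4.17 in KO libraries and 5.51, 3.82 and 4.58 in WT libraries. That at chr13:21808863-21812398, in the domain ranked 10, had 3.46, 3.19 and 3.23 in KO, against 4.42, 4.34 and 4.36 in WT. That at chr13:23561155-23563455, in the domain ranked 3, had 5.09, 5.26 and 5.04 in KO, against 4.29, 3.82 and 4.89 in WT.

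Promoters of histone genes inside the domains differed in motifs from promoters in all. Histone promoters outside the domains were not compared, and neighbouring genes of a cluster are not independent items. Of 28 histone promoters that overlapped a constituent, 82.1% held a CCAAT box, against 38.5% of 21044 promoters in all, and 60.7% held a TATA box, against 12.7%. H3c8, printed above, has 3 CCAAT boxes, and H4c1 has 1 CCAAT box, 3 GC boxes and 1 match of the TATA motif. That match lies after the start. None of the 28 held the ETS motif. In the 353 other promoters that overlapped a constituent, the ETS motif was present in 23.8%, against 24.7% of the 6906 promoters at other regions with peaks in all 3 KO libraries and 11.7% of all promoters. For the GC box the shares were 62.3%, 66.7% and 46.7% in the same order, and for the CCAAT box 39.4%, 39.6% and 38.5%.

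Of 26 immediate early genes, which respond to growth factors and stress within minutes, 5 (19.2%) were inside a domain, against 2.25% of all genes. They were Mcl1, Zfp36, Junb, Klf6 and Dusp1. Of list members that overlapped a region with peaks in all 3 KO libraries, 4 of 18 (22.2%) were inside. The share was 4.94% among all 9288 such genes. Zfp36, which encodes an mRNA-destabilising protein, had no constituent over the gene itself. Junb and Klf6 encode transcription factors. The Mcl1 domain (chr3:95644668-95675451) had 5 constituents, with peaks over 6265, 3609 and 6447 bp in KO libraries, against 1850, 1597 and 1516 bp in WT libraries. The Klf6 domain had 4 constituents, with peaks over 3000, 1798 and 4107 bp in KO libraries, against 301, 837 and 567 bp in WT libraries. The Dusp1 domain covered 2812, 2965 and 3908 bp in KO libraries, against 2339, 1319 and 2341 bp in WT libraries, so the KO and WT values lay closer there. Each of the constituents over Mcl1, Junb, Klf6 and Dusp1 themselves had a peak in all 3 WT libraries. Promoters differed from this in part. The region overlapping the Klf6 promoter had a peak in 2 WT libraries. No region with peaks in all 3 KO libraries overlapped the Junb promoter.

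Of 27 interferon response genes, 4 (14.8%) were inside a domain, against 2.25% of all genes. Of the 25 that overlapped a region with peaks in all 3 KO libraries, 4 (16%) were inside, against 4.94% of such genes in all. Most of these 4 are neighbours in 1 domain, so domains and not genes are the independent items. Psmb8, Psmb9 and Tap1, neighbours in the major histocompatibility complex that encode immunoproteasome subunits and a peptide transporter, shared 1 domain of 4 constituents (chr17:34186683-34211353). Its peaks covered 4888, 4020 and 5450 bp in KO libraries, against 1760, 783 and 1637 bp in WT libraries. Irf9, a part of the interferon-activated factor ISGF3, lay with the proteasome activator genes Psme1 and Psme2 in another, with 3, 3 and 4 of its 4 constituents in the WT libraries. Outside the list count, Ifitm1, Ifitm2, Ifitm3, Ifitm5 and Ifitm6 lay with Pgghg in the domain ranked 7 (chr7:140941013-141017782). There, WT libraries had 6, 6 and 7 of the 8 constituents, and peaks covered 7541, 6029 and 6416 bp in KO libraries, against 3967, 3766 and 3909 bp in WT libraries.

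In the other lists 0% to 10% of members were inside, against 2.25% of all genes. Of members that overlapped a region with peaks in all 3 KO libraries, 0% to 10.3% were inside, against 4.94% of all such genes. Of 30 stem cell identity genes, only Lmo2, a bridging factor of the blood stem cell transcription complex, was inside a domain. Its 5 constituents (chr2:103934048-103970316) had a peak in 4, 3 and 3 cases in the WT libraries, and peaks covered 4199, 2527 and 4219 bp in KO libraries, against 2820, 2160 and 1415 bp in WT libraries, so that KO replicate 2 lay below WT replicate 1. Of 30 chromatin regulators 2 were inside, the H3K79 methyltransferase Dot1l and the H3K4 methyltransferase Kmt2b. The constituent over Kmt2b had no peak in any WT library. Of 50 ribosomal protein genes 2 were inside (Rps18 and Rpl6), as were 3 of 30 housekeeping genes (Hsp90ab1, Eif4a1 and Actb). Of 20 myeloid genes 1 was inside, the macrophage marker Cd68, with no constituent over it. No member was inside a domain among 28 genes of PP2A subunits and regulators, 30 cell cycle genes, 20 erythroid, 20 lymphoid and B cell, 20 T and NK cell, 20 megakaryocyte and platelet, 22 endothelium and stroma and 32 other organ genes.

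Inside or within 50 kb of a domain were 4.90% of all protein-coding genes. This reach added 10 histone genes, to 89.4% of that list, and 5 ribosomal protein genes, to 14%. It added 2 genes each to the chromatin, interferon and housekeeping lists and 1 each to the PP2A, cell cycle, other organ and endothelium lists. Of the myeloid list, 3 further genes lay within that distance: the neutrophil granule genes Elane and Prtn3, 20043 and 25085 bp from the domain ranked 42, and Mpo, 43280 bp from the domain ranked 81. The erythroid genes Slc4a1 and Klf1 were 29474 and 44008 bp from a domain. No gene was added to the stem cell identity, lymphoid, T and NK cell, megakaryocyte or immediate early lists.

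The 28 domains without a protein-coding gene were a median of 24.1 kb from the nearest one. Their nearest genes included Cebpb, a transcription factor of myeloid cells and stress, at 50076 bp (7 constituents, 5, 4 and 4 in WT), and Ptma, the gene of prothymosin alpha, at 20729 bp (6 constituents, 4, 5 and 5 in WT). Tnfaip3, an inhibitor of NF-kappaB, was 17669 bp away (4 constituents, 4, 4 and 2 in WT), and Ccr2, a chemokine receptor of monocytes, was 20077 bp away (4 constituents, 4, 2 and 3 in WT). Ccnd2, the gene of the G1 cyclin D2, was 84167 bp from its domain (4 constituents, 2, 3 and 3 in WT). Nearest position says nothing of which gene an element acts on. Some such domains all but touched a gene, as that beside Spen, 22 bp away.

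The domains also held 16 of 1005 miRNA hairpins in the RefSeq table, in 12 domains, and 7 of the 16 overlapped a constituent. Mir23a, Mir27a and Mir24-2 lay within 1 constituent of the domain ranked 37 at Zswim4, which had a peak in all 3 WT libraries. In that domain peaks covered 5525, 3799 and 5048 bp in KO libraries, against 2692, 2679 and 1906 bp in WT libraries. Mir21a lay at the 3′ end of Vmp1, an autophagy gene, 1961 bp from the nearest constituent of the domain ranked 20 (chr11:86581165-86624866). All 6 constituents of that domain had a peak in every WT library, and the highest fold was 5.29, 3.91 and 5.60 in KO libraries, against 5.80, 5.65 and 5.99 in WT libraries. Peaks nevertheless covered 6761, 5348 and 6749 bp in KO libraries, against 4262, 4116 and 4898 bp in WT libraries. Mir26b, in an intron of Ctdsp1, was 1821 bp from a constituent with a peak in 1 WT library. A pair of epithelial miRNAs, Mir200c and Mir141, lay in the domain ranked 46 with Ptpn6, 4518 and 4843 bp from a constituent.

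The positions of the constituents fitted the word enhancer in part only. Within 1 kb of either end of a protein-coding gene lay 358 constituents (34.7%), against 47.1% of the 13943 other regions with peaks in all 3 KO libraries and 46.2% of both together. Within 1 kb of a start in the promoter table, which holds starts for 17273 of the 21627 genes, lay 30.9% of constituents, against 41.5% of the other regions and 40.7% of both. A further 33.1% of constituents, against 31.4% of the others, lay inside a gene away from its ends, and 32.2%, against 21.6%, lay between genes. But 86 of the 220 domains (39.1%) had at least 50% of their constituents at gene ends, and in 20 domains all were. Such domains held a median of 4 genes, against 1 in the other 134, and 66 domains had no constituent at a gene end. They are therefore called clustered domains here.

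Constituents were found in WT libraries somewhat more often than other regions of the KO set. Of the 1033 constituents, WT replicates 1 to 3 had a peak in 648 (62.7%, exact Clopper-Pearson 95% interval 59.7 to 65.7), 686 (66.4%, 63.4 to 69.3) and 635 (61.5%, 58.4 to 64.5). Intervals cover counting error only. Over all 14976 regions the shares were 57.7%, 62.2% and 57.1%. The mean was 63.5% ± 2.57 for constituents and 58.7% ± 2.76 for the other 13943 regions (SD, n = 3 WT libraries each). The difference was 5.37, 4.57 and 4.66 percentage points in the 3 WT libraries, a mean of 4.87 ± 0.436 (SD). It was positive in 3 of 3 libraries, with a two-sided exact sign-flip p = 0.25, the smallest that 3 libraries allow. Without the first-ranked domain the shares of constituents were 61.9%, 65.6% and 60.6%, and the difference was 4.04 ± 0.418 points (SD, n = 3). With regions merged from KO peaks alone the mean was 63.4% ± 2.58 for constituents and 58.4% for other regions, a difference of 4.99 ± 0.447 points.

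The gap differed with position and was smaller at matched rank. Away from gene ends the WT share was 60.4% ± 2.47 for constituents and 51.8% ± 2.51 for other regions, a difference of 8.60 ± 0.818 points (SD, n = 3). Without the first-ranked domain these were 59.1% ± 2.55 for constituents and a difference of 7.21 ± 0.833 points. At gene ends it was 69.4% ± 3.60 and 66.3% ± 3.06, a difference of 3.02 ± 2.48 points. Regions were also sorted into 10 groups by their mean rank in the 3 KO lists. When other regions were weighted to the same rank groups as the constituents, the difference was 2.79 ± 0.417 points (SD, n = 3, positive in 3 of 3, two-sided exact sign-flip p = 0.25), and 2.81 ± 0.432 without the first-ranked domain. In the strongest group 97.0% of constituents and 97.0% of other regions had a WT peak, and in the weakest 25.6% and 24.8%. The gap was widest in between, in rank group 7, with 51.6% and 44.5%, or 7.15 points. WT detection thus fell with KO rank in both sets, over a far wider range than the gap between the sets.

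**Figure D3:**
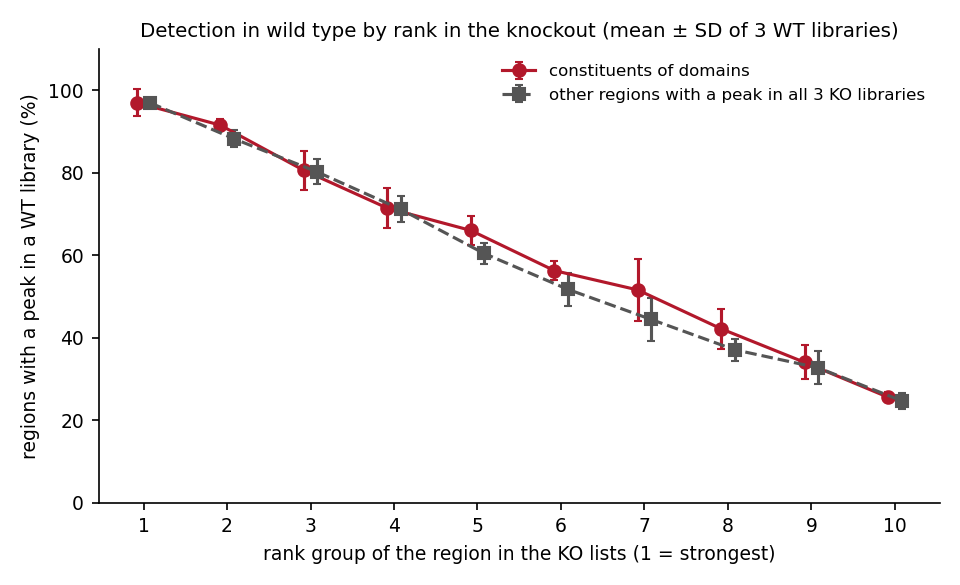
Share of regions with a peak in a WT library (mean ± SD of 3 WT libraries) by rank group in the KO lists, for constituents (red circles) and other regions with peaks in all 3 KO libraries (grey squares). Both fall, with constituents at 97.0% in the first group and 25.6% in the last. The gap is widest in rank group 7, at 51.6% for constituents and 44.5% for other regions.

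All 3 WT libraries had a peak in 422 constituents (40.9%), against 36.3% of other regions and 36.7% of both, and in 399 of 1010 (39.5%) without the first-ranked domain. No WT library had one in 148 constituents (14.3%), against 19.2% of other regions and 18.9% of both. These 148 were spread out. They lay in 108 domains (49.1%), of which 34 had 2 or more and 6 had 3 or more, and no domain consisted of such constituents alone. A q-value of at most 0.05 was reached in 24.98%, 28.8% and 25.7% of constituents in WT replicates 1 to 3, against 20.1%, 24.7% and 19.6% of other regions. In the KO libraries it was reached in 89.2%, 76.3% and 91.5% of constituents, against 88.0%, 74.2% and 90.9% of other regions. Peaks covered 904, 717 and 929 kb of the constituents in KO replicates 1 to 3, against 361, 382 and 338 kb in WT replicates 1 to 3. In KO libraries the median covered length was 801, 612 and 837 bp per constituent, against 810, 618 and 851 bp per other region. In WT libraries, counting regions without a peak, it was 284, 313 and 253 bp, against 200, 243 and 200 bp. Without the first-ranked domain the WT shares with such a q-value were 23.3%, 27.2% and 23.96%, and peaks covered 891, 705 and 915 kb in KO libraries, against 348, 368 and 325 kb in WT libraries.

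Few domains were complete in WT. All 3 WT libraries had a peak in 40.9% of constituents and 36.3% of other regions. A complete domain needs this at 4 or more neighbours, so few would be complete at that share alone. Of the 220 domains, 6 (2.73%) had every constituent in all 3 WT libraries. Besides the chromosome 9 domain and Vmp1 they were the domain of Hdgf, Mrpl24, Rrnad1 and Isg20l2, that of the interferon-induced GTPase genes Tgtp2 and Ifi47, that of Gmeb1 and Taf12, and that of Tex14, a gene of germ cell bridges. At Tex14 the highest fold was 12.1, 10.4 and 11.6 in KO libraries, against 7.03, 7.14 and 7.84 in WT libraries. At least 4 constituents were found in 62, 79 and 52 domains in WT replicates 1 to 3. With a q-value of at most 0.05 the counts were 161, 98 and 176 domains in KO libraries, against 6, 5 and 6 in WT libraries. The rule asks for KO peaks, so these counts are descriptions. At other regions such a q-value was reached in 74.2% to 90.9% in KO libraries, against 19.6% to 24.7% in WT.

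The lowest WT shares were in domains of 4 constituents. At Zfp747, Zfp764 and 2 neighbours with RIKEN names on chromosome 7, where the Zfp genes encode zinc finger proteins, WT libraries had 1, 0 and 0 of 4. At Rnf166, Ctu2 and Piezo1, the last a mechanosensitive ion channel, they had 0, 1 and 1. A gene-free domain on chromosome 11, that of Ly6g6d, Ly6g6f and Abhd16a on chromosome 17, and that of Oxr1, an oxidation resistance gene on chromosome 15, had 1 in each WT library. A gene-free domain on chromosome 1, ranked 219 and 3104 bp from Acbd3, had the same mean share as these last 3, with 2, 0 and 1 of 4. These were picked for their low values and were not tested.

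To set the genotypes side by side, domains were chosen by the peaks of 2 KO libraries and looked up in the third and in WT. Regions were merged from the peaks of all 6 libraries, so peaks of the libraries looked up could widen or join them. With KO replicates 1, 2 and 3 left out of the merging too, there were 356, 496 and 312 domains, as above. The choice still rested on KO libraries, and so the opposite choice, with the same merging, was made as well. Both alternatives were chosen once results were known. With KO replicate 1 held out, 347 domains with 1620 constituents were chosen, and 87.2% of the constituents had a peak in that KO library, against 56.9%, 59.9% and 56.0% in WT replicates 1 to 3. With KO replicate 2 held out (490 domains, 2321 constituents) the shares were 76.7% in KO, against 53.3%, 56.1% and 51.6% in WT. With KO replicate 3 held out (312 domains, 1481 constituents) they were 88.7% in KO, against 57.2%, 61.4% and 56.3% in WT. Each held-out KO library lay above each WT library, by 29.6, 23.0 and 30.4 points over the WT mean. The gap was not larger in clusters than outside them, as it was 34.7, 27.4 and 34.8 points at the other regions of the same 2 KO libraries. The 3 sets share libraries, so they got no test.

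At equal list length the gap was smaller. When each library was cut to its 21822 best peaks by −log10 p-value, the length of the shortest list, the held-out share was 88.4% in KO replicate 1, against 69.7%, 63.8% and 65.9% in WT. It was 78.8% in KO replicate 2, against 66.8%, 61.5% and 61.4% in WT, and 88.8% in KO replicate 3, against 68.4%, 65.3% and 64.3% in WT. The KO library was above each WT library in all 3 cases, at differences smaller than with the full lists.

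With the choice made in WT, domains came from 2 WT libraries and were looked up in the KO libraries and the third WT library. With WT replicate 1 held out there were 32 domains with 157 constituents, and 93.6%, 91.1% and 94.3% of these had a peak in KO replicates 1 to 3, against 82.8% in the WT library. With WT replicate 2 held out (26 domains, 129 constituents) the shares were 89.15%, 88.4% and 92.25% in KO, against 86.05% in WT. With WT replicate 3 held out (38 domains, 181 constituents) they were 93.9%, 90.1% and 93.4% in KO, against 77.9% in WT. Each KO library lay above the held-out WT library here too, by 2.33 to 16.0 points, and by 2.86 to 19.1 points without the first-ranked domain. At other regions of the same 2 WT libraries the KO shares lay higher too, by 11.4 to 19.2 points. With 21822 peaks in every library the KO shares were 83.7% to 91.0%, against 81.1%, 79.8% and 86.5% in WT replicates 1 to 3, and the order was the same in each case. The 3 sets again share libraries and got no test.

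**Figure D4:**
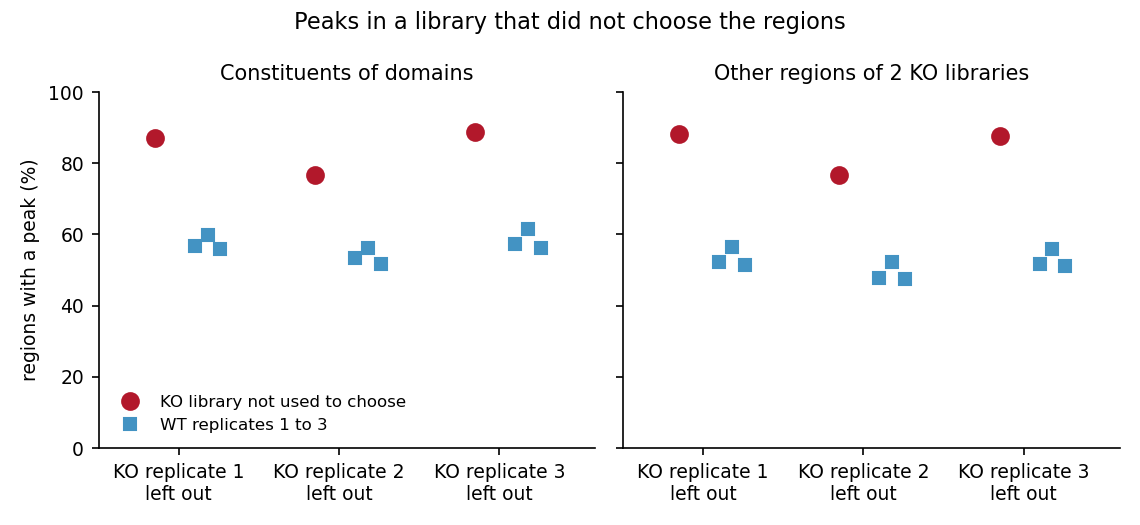
Share of regions chosen in 2 KO libraries that had a peak in the KO library left out (red circles) and in the 3 WT libraries (blue squares), for constituents of domains (left) and other regions (right). The left-out KO library lies at 76.6% to 88.7% in both panels, above every WT library.

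Clusters were then called in each library from its own peaks alone, with the same distance and number. There were 3125, 1938 and 2246 clusters in KO replicates 1 to 3, against 618, 877 and 600 in WT replicates 1 to 3, a mean of 2436 ± 616 in KO and 698 ± 155 in WT (SD, n = 3 each). The ratio was 3.49 and the groups did not overlap (two-sided exact permutation p = 0.1, the smallest that 3 against 3 allows). With 21822 peaks in every library the counts were 700, 620 and 697 in KO, against 593, 356 and 600 in WT. The ratio was then 1.302, again without overlap (two-sided exact permutation p = 0.1). With a q-value of at most 0.05 there were 722, 294 and 893 clusters in KO, against 7, 7 and 8 in WT. The libraries' own clusters overlapped 215, 215 and 219 of the 220 domains in KO, which the rule favours, against 105, 120 and 104 in WT (47.7%, 54.5% and 47.3%).

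**Figure D5:**
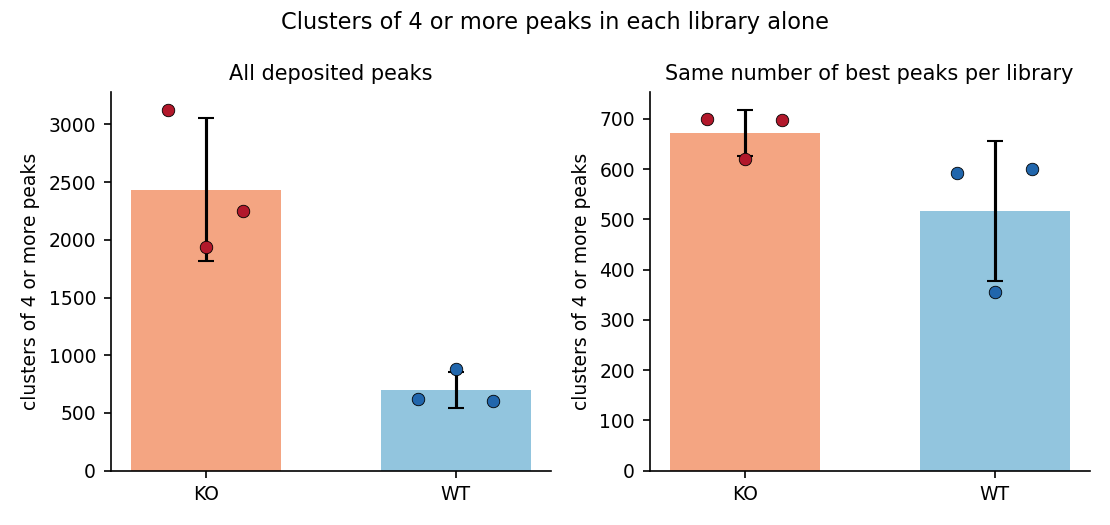
Clusters of 4 or more peaks per library with all deposited peaks (left) and with the same number of best peaks per library (right), for KO and WT. Bars are means, error bars SD over 3 libraries and points single libraries, and the y axes differ. The ratio of the means is 3.49 on the left and 1.302 on the right.

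The same rule applied to the WT libraries gave far fewer domains. Of 5811 regions with a peak in all 3 WT libraries, 79 (1.36%) fell into 14 domains, against 6.90% and 220 for KO. Of the 14, 10 overlapped a KO domain, which is 71.4% of the WT domains and 4.55% of the KO domains. KO libraries had a peak in 96.2%, 94.9% and 94.9% of the 79 WT constituents. The 10 shared places included Vmp1, Pxn, the Daxx and Tapbp domain, Tex14 and the chromosome 9 domain. The other 4 were at Ubxn8 and Gsr (Gsr encodes glutathione reductase), at Adgrg3 and Drc7, at a gene-free place on chromosome 10, and at Pisd, the mitochondrial phosphatidylserine decarboxylase. At Pisd each KO library had a peak in 2 of the 4 WT constituents.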

How the data were processed

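H3K27ac CUT&RUN peak lists of 3 KO and 3 WT libraries were analysed. Peaks are on GRCm38 (mm10), and the tools named are MACS2, BWA, Trimmomatic, ChIPseeker, HOMER and deepTools, per the submitters' processing notes. The sources used here give no versions, parameters or control library. Each library has its own list, so replicates were not pooled. The deposited ratio is the fold over the caller's background at a summit, the −log10 p-value and the −log10 q-value deposited beside it are of that summit too, and no result uses the deposited score. Folds are the authors' and are only described, since they depend on each library's depth, which the lists do not give.

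Regions, domains and shares were computed in Python 3.11.15 with pandas 2.3.3, numpy 2.4.6 and scipy 1.17.1, and the procedure was tested on simulated data. Genes came from a RefSeq table of GRCm38.p6, and a gene counted as inside where it overlapped a domain by at least 1 bp. The table has no strand, so starts came from the RefSeq promoter table. Of 454 entries of 16 gene lists, 452 matched. The members and lists were chosen with earlier results of these data known. Domains named are the first 15, the 5 with the lowest mean WT share (a tie at the fifth place went to the better ranked, and the tied domain left over is named too), the first with all constituents in every WT library, those at the threshold, and up to 4 genes per list, and others were named after their values were seen. Libraries were the replicates in every test, and nothing says that they came from separate preparations. No label says that replicate numbers pair samples. Correlations of deviations between KO and WT replicates ran from −0.0109 to 0.00846 over 27595 regions, which shows no pairing but cannot exclude one. Alternatives were other distances, minimum numbers, peak thresholds, list lengths, merging rules, chromosomes and windows, and each library left out. Choosing from 2 KO or 2 WT libraries with the third held out, starts in place of gene ends, regions merged from KO peaks alone, and the first domain left out, alone and with 6 of the other settings, were added after seeing the data. No genome was used here, so sequences of constituents are not printed.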

Additional observations from a re-analysis of the deposited data

Results flagged for a closer look

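Chromosome Y and unplaced sequences took no part in the comparisons. Of 47 regions on chromosome Y, 5 had a peak in all 3 KO libraries, against 1 in all 3 WT libraries, and none of them formed a cluster of 4. This was noted because it is a signal outside the chromosomes used, and it was not tested. On the other sequences left out, 13 of 269 regions had a peak in all 3 KO libraries, against 18 in all 3 WT libraries.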

How the results depend on the processing

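The 220 domains became 10 with stitching within 5 kb, 673 within 25 kb, 701 with at least 3 constituents, 30 with at least 6, 62 with peaks of q-value at most 0.05, 77 with the same number of peaks per library and 81 with regions away from gene ends only. Leaving out each library gave 216 to 496 domains. The mean WT share of 63.5% became 77.4% within 5 kb, 66.5% with at least 6 constituents, 39.3% with q-value at most 0.05 and 71.8% with equal numbers of peaks, and lay between 53.1% and 64.5% when each library was left out. The share at gene ends of 34.7% became 16.9% within 5 kb, 39.9% within 25 kb, 30.9% with at least 6 constituents, 40.5% with q-value at most 0.05, 40.5% with equal numbers of peaks, 41.5% with a window of 2.5 kb and 30.9% for starts, and lay between 31.6% and 35.3% when each library was left out. Without the first-ranked domain, which supplied 23 of the 59 constituents within 5 kb, the numbers of domains were 9 within 5 kb, 29 with at least 6 constituents, 61 with q-value at most 0.05, 76 with equal numbers of peaks and 80 away from gene ends. The WT shares were then 62.96% within 5 kb, 62.8% with at least 6 constituents, 34.1% with q-value at most 0.05 and 69.9% with equal numbers of peaks, and the shares at gene ends were 27.8% within 5 kb, 44.0% with q-value at most 0.05 and 43.2% with equal numbers of peaks. Stricter thresholds and fewer libraries change how many regions enter, and other causes were not tested. The mean difference in WT share between constituents and other regions stayed positive in all 26 alternatives. Within 5 kb it was 18.5 points with the first-ranked domain and 4.03 without it, where WT replicate 3 had −1.51 points. With at least 6 constituents it was 7.63 with that domain and 3.91 without it, and with q-value at most 0.05 it was 9.23 and 4.02. When only regions away from gene ends were stitched into new domains, it was 12.4 and 10.2. The lowest value, at matched rank, was 2.79. The KO minus WT difference in own clusters stayed positive in all 15 (156 to 2844). No test here could pass 0.05, so this is direction only.

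Replicate numbers were also used as a block for the clusters of each library. The difference of 1738 clusters was positive in 3 of 3 pairs, with a two-sided exact sign-flip p = 0.25, the smallest possible, against 0.1 without the block. No label says that the numbers pair the samples.

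Most peaks of the WT lists had a q-value above 0.05, so a constituent without a WT peak was not listed there and is not shown to lack the mark. The depth of the lists is not known.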
